A study of Gallus gallus with 10 samples.

Results

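Gene expression in duodenal crypts was compared between laying hens fed a basal diet with the Lactobacillus pair L. sa. + L. av. and hens fed the basal diet alone (control). The comparison holds 2 L. sa. + L. av. libraries and 3 control libraries, 5 of the 10 libraries of the series, chosen by their titles. All hens were of the brown Hy-Line variety at peak egg production and came from a commercial farm. The pair was given at 10e8 CFUs per hen per day for 30 days, with the abbreviations and the dose as the labels write them. The series title names Lactobacillus salivarius and Lactobacillus agilis, and L. av. is not spelled out in the labels. Another library, titled L. ag. + L. av. but described as the third L. sa. + L. av. library, is called here the library of unclear pair and was left out of the comparison. Whether every library is from another hen is not stated, so the p-values reflect the spread among libraries, and that spread may be technical in part.

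Intestinal crypts are the pits between the villi. Stem cells at their base divide and replace the epithelium, and in mammals Paneth cells beside them secrete antimicrobial proteins and signals that keep the stem cells active. Lactobacilli are lactic acid bacteria of the normal gut flora and are fed to poultry as probiotics. The series asks how they regulate gene expression in crypts and names Paneth cells and stem cells in its title. The deposited table gives identifiers without gene symbols and 0 of them could be matched to a symbol, so stem cell, Paneth cell and other markers could not be examined and the crypt label could not be checked against them. Results are therefore given for features, the genes or transcripts of the table, by identifier, length and level. In RNA from a bulk tissue, fewer cells of a type and less RNA per cell cannot be told apart.

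Recovered reads numbered 15.3 M and 15.4 M in the 2 L. sa. + L. av. libraries, against 23.7 M, 21.7 M and 21.9 M in the 3 control libraries. The groups did not overlap in depth, and depth and diet cannot be told apart (2-sided exact permutation p = 0.2, the smallest that 2 against 3 libraries allow). Features at 0 numbered 4748 and 5675 with L. sa. + L. av., against 4112, 3921 and 4134 in control. With every library thinned to 15.0 M reads, a step added after seeing the data, the counts were 4761 and 5686 with L. sa. + L. av., against 4518, 4230 and 4447 in control (medians of 5 draws). The L. sa. + L. av. libraries thus still held more features without a read than any control. The 10 most abundant features of each library took 22.0% and 27.4% of its reads with L. sa. + L. av. In control they took 18.5%, 31.4% and 56.5%, so control replicate 3 stood apart from the other libraries on this measure and the groups overlapped.

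The L. sa. + L. av. libraries, like the other pair-fed libraries, held more features at high levels than the controls. Levels are in FPKM, fragments per kilobase of feature and scaled to a library total set by the authors. Features above 100 FPKM numbered 977 and 968 with L. sa. + L. av., against 619, 556 and 569 in control. Features above 1000 FPKM numbered 147 and 155 with L. sa. + L. av., against 50, 64 and 77 in control. Neither measure overlapped between the groups (2-sided exact permutation p = 0.2 for each, the smallest possible). In the 5 pair-fed libraries outside the comparison, 637 to 1135 features passed 100 FPKM and 99 to 195 passed 1000 FPKM, also more than in any control. The number of features at 1 FPKM or more, 10430 and 9963 with L. sa. + L. av. and 10094, 10418 and 10698 in control, did overlap. The libraries thus held similar numbers of features at 1 FPKM or more, and more features passed the 2 higher bounds with L. sa. + L. av. Such counts depend on the authors' library total, and a larger total gives lower FPKM. That total was 0.886 and 0.809 times the recovered reads with L. sa. + L. av., against 1.28, 1.24 and 0.755 times in control replicates 1, 2 and 3. The part of this scaling in the counts was not tested.

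With L. sa. + L. av., 1342 features rose and 535 fell relative to control among 11084 tested. A feature was tested if it reached 1 FPKM in at least 2 of the 5 libraries, and a call needed a 2-sided limma p on log2(FPKM + 1) that stayed under 0.05 after Benjamini-Hochberg adjustment. The 1877 calls were 16.9% of the features tested, 12.1% higher and 4.83% lower, and the unadjusted p was under 0.05 for 4170 features (37.6%). Of the calls, 1296 rose (11.7% of those tested) and 457 fell (4.12%) at least 2-fold on this scale, which understates the change of low features. At least 4-fold, 311 rose and 27 fell, and at least 8-fold, 23 rose and 0 fell. With the pseudocount of 1 a fall is limited by the control level, which had a median of 8.21 FPKM for features called lower. These counts thus do not compare the size of rises with that of falls. The median log2 fold change was 1.61 for features called higher, -1.23 for those called lower and -0.01 over all features tested.

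The number of calls moved with single libraries and with the way the spread was estimated. Limma called 0 features when either L. sa. + L. av. library was left out (replicate 1 or replicate 2) and when control replicate 2 was, with the unadjusted p under 0.05 for 2625, 3394 and 2702 features in that order. Without an L. sa. + L. av. library that diet is 1 library, the spread comes from the controls alone and the lone library is assumed to vary like them. The 1877 features all kept their sign in these 3 fits, and 97.5%, 99.0% and 99.6% of them had an unadjusted p under 0.05, a description only, since they were chosen on the same values. The count was 821 without control replicate 3 and 2231 without control replicate 1, and 395 after division by all recovered reads. A fit of all groups of the series, in which all libraries share 1 estimate of the spread, called 9 features, 0.0812% of those tested, all higher and all among the 1877, with the unadjusted p under 0.05 for 3182 (28.7%). With the replicate number as a block the limma count was 0, with the unadjusted p under 0.05 for 3074 features. Without any test, both L. sa. + L. av. libraries lay above all controls for 3187 features (28.8%) and below all controls for 3009 (27.1%), together 55.9% of those tested.

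**Figure D1:**
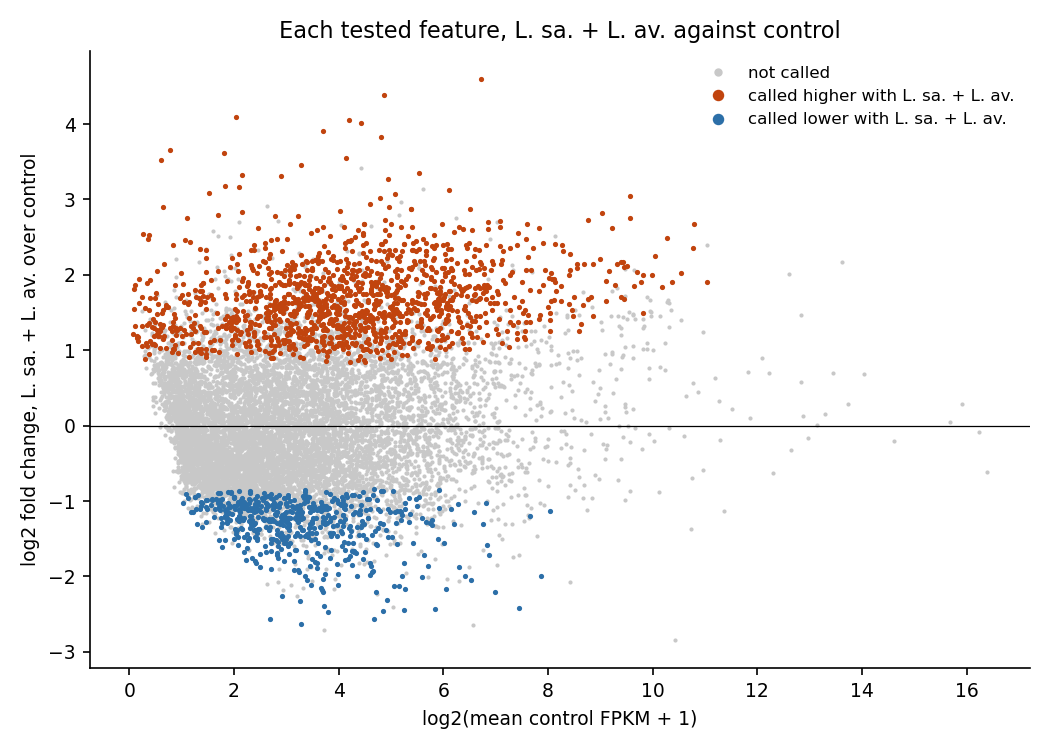
Each dot is 1 of the 11084 features tested, with the log2 of its mean control FPKM + 1 across and its log2 fold change, L. sa. + L. av. over control, upward. The 1342 features called higher and the 535 called lower are coloured. The features called higher reach further from 0 on this scale, on which falls are limited by the control level, and to higher control levels.

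The 2 features with the highest fold changes were short and were abundant with the pair. ENSGALG00000017926, of 329 bp, was at 3388 and 1905 FPKM with L. sa. + L. av., against 108, 101 and 103 FPKM in control. The 2 groups lay far apart, the control values were nearly equal, and the 2 L. sa. + L. av. values were spread. The group means were 2647 ± 1049 FPKM with L. sa. + L. av. (SD, n = 2) and 104 ± 3.92 FPKM in control (SD, n = 3). The log2 fold change came to 4.60 ± 0.34 (SE), with a limma adjusted p of 0.017.

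ENSGALG00000025650, of 322 bp, was at 765 and 480 FPKM with L. sa. + L. av., against 30.1, 30.3 and 24.3 FPKM in control. Here too replicate 1 was the higher L. sa. + L. av. library, and the groups did not overlap. The log2 fold change came to 4.38 ± 0.30 (SE), again with a limma adjusted p of 0.017, and the means stood 22.1-fold apart. The values rest on 3331 and 1932 reads with L. sa. + L. av. and on 294, 262 and 129 reads in control. Both features were among the 9 called in the fit of all groups, with a limma adjusted p of 0.016 each. Neither was called when L. sa. + L. av. replicate 1 (limma adjusted p = 0.12 for each), L. sa. + L. av. replicate 2 (0.064 for each) or control replicate 2 (0.10 for each) was left out. In those 3 fits the log2 fold change was 4.18, 5.01 and 4.58 for ENSGALG00000017926 and 4.05, 4.72 and 4.44 for ENSGALG00000025650, so the threshold was missed with the changes about as large.

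The 2 features with the lowest fold changes, among called features that reached a mean of 5 FPKM in either group, had few reads. The feature to which the authors gave the number 1112, of 798 bp, was at 0.835 and 0.201 FPKM with L. sa. + L. av., against 12.8, 8.46 and 4.93 FPKM in control. These values rest on 9 and 2 reads with L. sa. + L. av. and on 309, 181 and 65 reads in control. Both L. sa. + L. av. libraries lay under the lowest control, and the control values were themselves spread more than 2-fold. The log2 fold change came to -2.63 ± 0.42 (SE), with a limma adjusted p of 0.019.

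ENSGALG00000025203, of 68 bp, was at 0 FPKM in both L. sa. + L. av. libraries, against 9.21, 2.74 and 4.45 FPKM in control. The control values rest on 19, 5 and 5 reads, and 3 reads would have given 3.26 and 3.53 FPKM in the L. sa. + L. av. libraries, above the lowest control. The control mean of 5.47 ± 3.35 FPKM (SD, n = 3) was 1.61-fold above the mean of those limits of 3 reads. That ratio is no lower bound on the fall, since the control mean is itself uncertain and control replicate 2 lay under both limits. The fit gave -2.57 ± 0.44 on the log2 scale (SE, limma adjusted p = 0.022), which depends on the pseudocount and is not a bound. Neither of the lower features was called in the fit of all groups (limma adjusted p = 0.11 for each) or without control replicate 2 (0.10 for each). Without L. sa. + L. av. replicate 1 the limma adjusted p was 0.12 for the authors' feature 1112 and 0.13 for ENSGALG00000025203, and with replicate 2 left out instead it was 0.085 and 0.088 in the same order. The log2 fold change in these 2 fits was -2.93 and -2.32 for the authors' feature 1112 and -2.57 in both for ENSGALG00000025203, and without control replicate 2 it was -2.61 and -2.90 for the 2 features in that order.

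**Figure D2:**
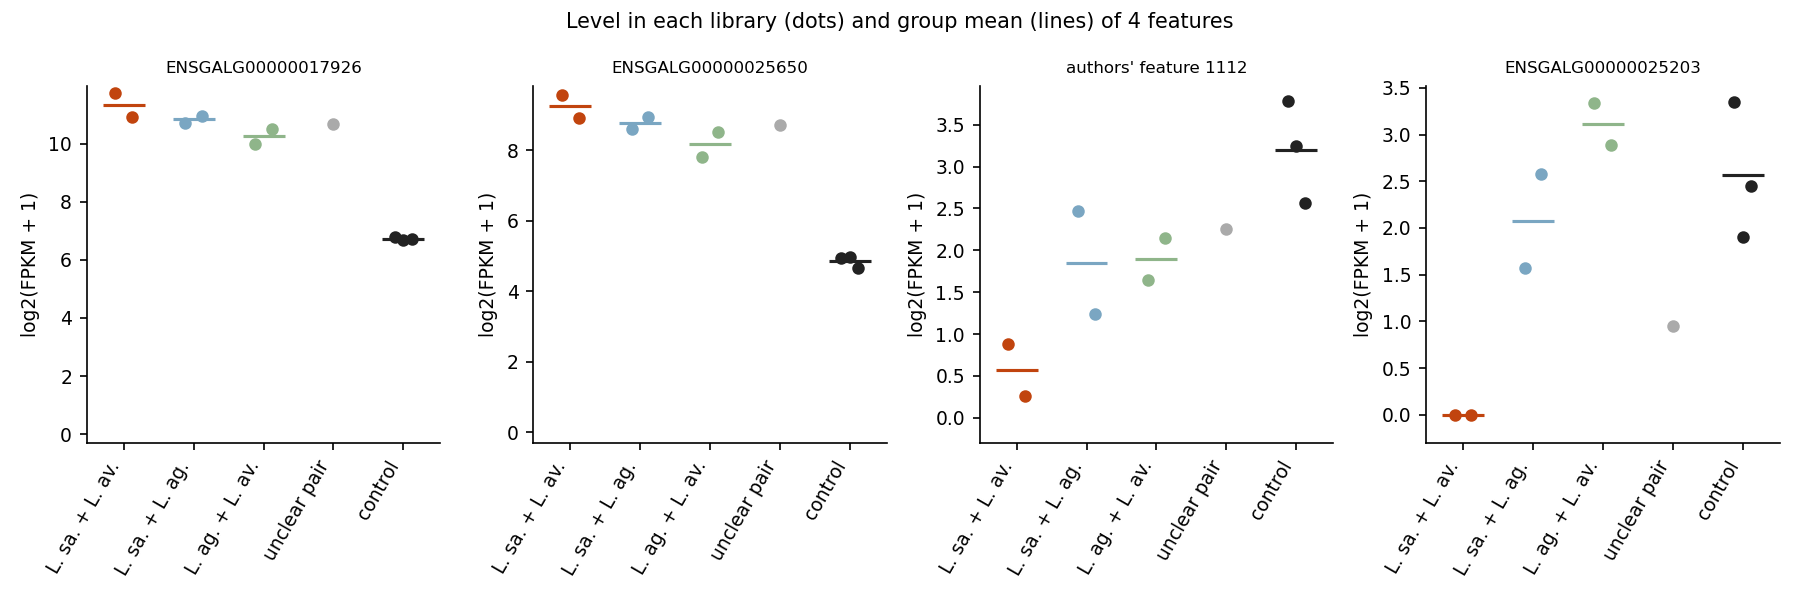
The level of the 4 named features, as log2(FPKM + 1), with 1 dot for each of the 10 libraries and a line at the mean of each group of 2 or 3. ENSGALG00000017926 and ENSGALG00000025650 lie above control in all 7 pair-fed libraries. The authors' feature 1112 lies below the lowest control in all 7 as well, and is lowest in the 2 L. sa. + L. av. libraries. ENSGALG00000025203 had 0 reads in these 2 libraries and 1 to 12 reads in the other pair-fed libraries.

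Short features leaned higher and long features lower with L. sa. + L. av. The median log2 fold change was 0.68 for the 710 features of up to 500 bp and 0.63 for the 1632 features of 500 to 1000 bp. It was 0.20 for 1000 to 2000 bp (and -0.07 after division by all recovered reads, which moved the median of all features to -0.26), -0.23 for 2000 to 4000 bp and -0.45 for the 1811 features above 4000 bp. Of the features of up to 500 bp, 167 rose and 13 fell, which is 23.5% and 1.83% against 12.1% and 4.83% over all features tested. Of those above 4000 bp, 51 rose and 137 fell, or 2.82% and 7.56%. Each library of the pair showed the same order, with medians of 0.88 and 0.63 up to 500 bp and of -0.44 and -0.43 above 4000 bp for replicates 1 and 2 against the control mean. The shortest class had few reads. The lowest read count of a feature over the compared libraries had a median of 8 there, against 84 to 176 in the longer classes. Lengths recovered from few reads may be too short, and the part of this in the shortest class was not tested.

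The controls also differed from each other by length, to a smaller degree. Up to 500 bp, control replicates 1, 2 and 3 lay at medians of -0.31, 0.08 and 0.24 on the log2 scale from the mean of the other 2 controls. Above 4000 bp they lay at 0.21, -0.04 and -0.16. Control replicate 1 thus stood on the side of long features and control replicate 3 on the side of short ones. Features of up to 500 bp took 5.41% and 5.22% of the recovered reads with L. sa. + L. av., against 2.61%, 3.09% and 2.84% in control, with no overlap. Features above 4000 bp took 7.09% and 7.36% of the reads with L. sa. + L. av., against 17.8%, 11.6% and 6.51% in control, where control replicate 3 lay below both. The 2-sided exact permutation p was 0.2 for the first share, the smallest possible, and 0.6 for the second. The part of depth in these differences was not tested.

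**Figure D3:**
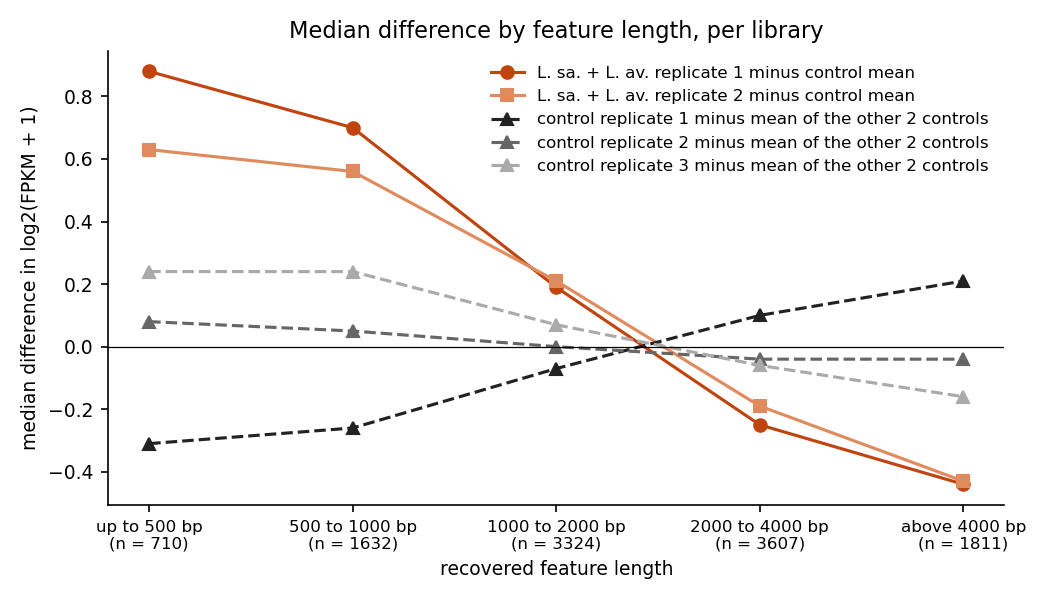
Median difference in log2(FPKM + 1) by recovered feature length in 5 classes, for each L. sa. + L. av. library against the control mean (solid lines) and for each control library against the mean of the other 2 (dashed lines). Both L. sa. + L. av. lines run from 0.88 and 0.63 in the shortest class to -0.44 and -0.43 in the longest, while the control lines stay within 0.31 of 0.

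Up to 1000 FPKM in control, abundant features rose more often than scarce ones. The scale understates the change of low features, and its part in these shares was not tested. With classes by the control mean, 266 of 4615 features under 5 FPKM rose (5.76%) and 161 fell (3.49%). The share that rose was 12.3% between 5 and 20 FPKM, 21.9% between 20 and 100 FPKM and 27.9% between 100 and 1000 FPKM, where 147 of 526 rose and 9 fell. The share that fell was highest between 5 and 20 FPKM, at 7.12%. Above 1000 FPKM the share that rose was smaller, at 14.5% (9 of 62 features), and 0 fell. The 3 controls themselves lay far apart there, with medians of -0.85, -0.02 and 0.58 from the mean of the remaining controls for replicates 1, 2 and 3. The median log2 fold changes from the lowest to the highest class were -0.10, -0.09, 0.26, 0.81 and 0.69.

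Classes by the control mean use values that also enter the fold change, so class and change are not independent. Classed instead by the mean of the 5 libraries outside the comparison, a choice added after seeing the data, the medians were -0.35, 0.00, 0.63, 1.27 and 1.48 from the lowest to the highest class. There 371 of 781 features between 100 and 1000 FPKM rose and 3 fell. These 5 libraries are pair-fed too, so features high in any pair-fed library are favoured in the upper classes. The order also depends on the scaling. With quantile normalization, which makes the distribution of values equal in every library, the medians of the 3 upper control-mean classes turned to -0.25, -0.22 and -0.26. Division by all recovered reads gave medians of -0.29 and -0.38 in the 2 lower classes, and relative to its shift of all features the 3 upper classes stayed higher, at -0.05, 0.49 and 0.36 as fitted.

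At a given control level, short features leaned higher and long features lower, and the trend with level differed by length. Among features with a control mean of 100 to 1000 FPKM, the median log2 fold change was 1.46 for the 54 features of up to 500 bp, of which 23 rose and 0 fell. It was 1.35 for 500 to 1000 bp (73 of 174 rose), 0.46 for 1000 to 2000 bp, -0.17 for 2000 to 4000 bp and -0.55 for the 21 features above 4000 bp, where 0 rose and 2 fell. Under 5 FPKM the medians ran over a narrower range, with 0.42 up to 500 bp, 0.43 between 500 and 1000 bp and -0.42 above 4000 bp. The class with the largest share of lower calls among classes of over 100 features was 5 to 20 FPKM above 4000 bp, where 73 of 666 features fell and 33 rose. Features above 2000 bp thus had medians below 0 and those under 1000 bp medians above 0 at each of the 3 levels described here. The share called higher grew with level for 2000 to 4000 bp, at 3.37%, 7.46%, 10.5% and 12.1% from under 5 to 100 to 1000 FPKM. The medians there were -0.24, -0.23, -0.20 and -0.17. Above 4000 bp the share did not grow steadily, at 1.21%, 4.95%, 4.62% and 0.0% over the same levels, with medians of -0.42, -0.49, -0.52 and -0.55.

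**Figure D4:**
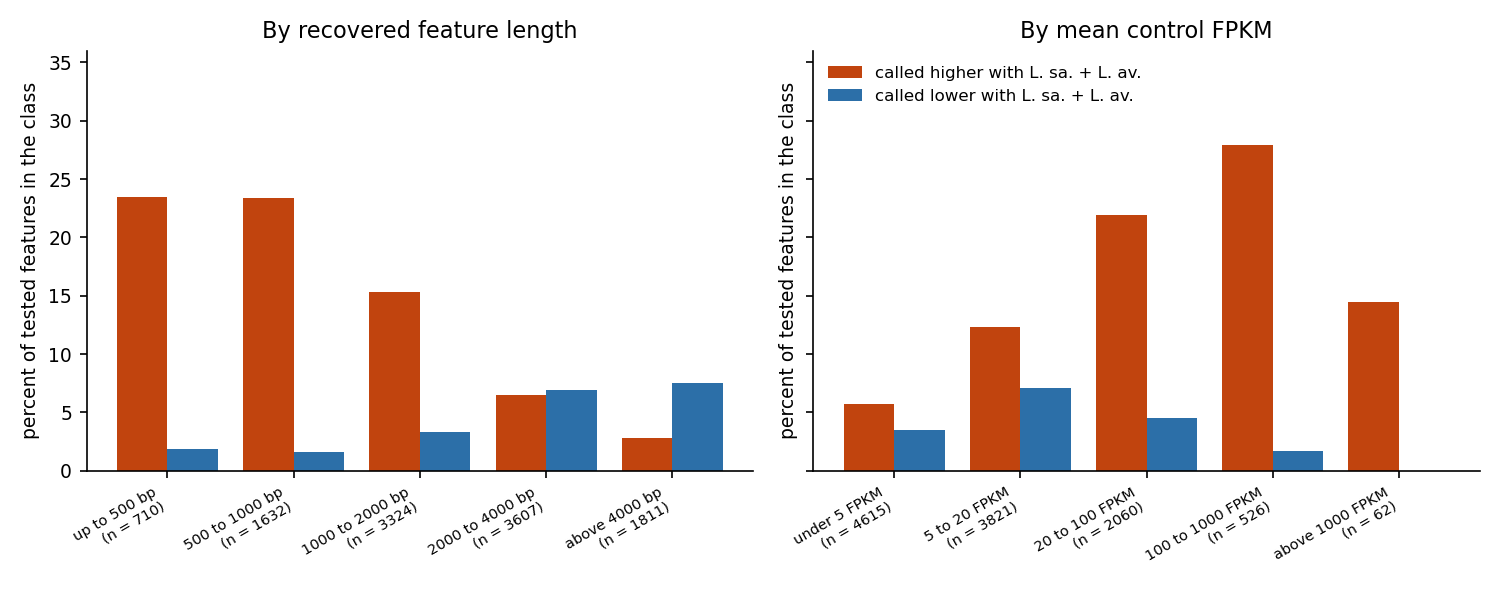
Bars give the percent of tested features called higher or lower with L. sa. + L. av., by recovered length (left panel) and by mean control FPKM (right panel), with the number of features under each class. Calls in the higher direction run from 23.5% in the shortest class to 2.82% in the longest, and lower calls are the more frequent above 2000 bp.

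Features that the authors numbered themselves rose more often than those with Ensembl identifiers. Of 1356 tested features with the authors' own identifiers, 257 rose (19.0%) and 11 fell (0.811%), with a median log2 fold change of 0.49. Of 9728 features with Ensembl identifiers, 1085 rose (11.2%) and 524 fell (5.39%), with a median of -0.08. The authors' own features were often short, and within classes of equal length the medians lay closer, at 0.86 and 0.51 up to 500 bp and at 0.74 and 0.57 between 500 and 1000 bp for the authors' own and the Ensembl features in that order. Between 2000 and 4000 bp they were 0.15 and -0.24, so the medians differed in sign. How the authors defined their own features was not examined, so whether that list favours features abundant in pair-fed libraries is not known. Own features took 3.70% and 3.18% of the reads with L. sa. + L. av., against 2.96%, 2.45% and 1.79% in control (2-sided exact permutation p = 0.2, the smallest possible).

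The features that rose and those that fell therefore had different profiles. Those called higher had a median length of 1166 bp and a median level of 53.8 FPKM with L. sa. + L. av. and 16.7 FPKM in control. Those called lower had a median length of 2879 bp and a median level of 2.57 FPKM with L. sa. + L. av. and 8.21 FPKM in control. Over all tested features the median length was 1957 bp. Of the features called higher, 1145 of 1342 were at least 2-fold above the control mean in each L. sa. + L. av. library, and of those called lower, 360 of 535 were at least 2-fold below it in each. Over all tested features 2020 (18.2%) were at least 2-fold from the control mean to the same side in each, and the calls were chosen on these same values.

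The 2 L. sa. + L. av. libraries contributed unequally to the rises. Replicate 1 lay further from the control mean than replicate 2 for 1000 of the 1342 features called higher (74.5%), for 241 of the 535 called lower (45.0%) and for 59.6% of all features tested. Control replicate 3 was the control nearest to the L. sa. + L. av. mean for 50.5% of the features called higher and 52.3% of those called lower, where it was the nearest for 44.2% of all features. Calls are chosen on these same values, so the shares are a description. No feature had at least 10 reads in both L. sa. + L. av. libraries and 0 in all controls. The reverse held for 8 features, none of which reached the level needed for testing, the highest of them at a control mean of 0.794 FPKM. The minimum is in recovered reads and the controls were deeper, so these counts do not compare the 2 directions.

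Against the other pairs, no difference was resolved in the main fit. Limma called 0 of 12040 features (0.0%) for L. sa. + L. av. relative to L. sa. + L. ag., the pair that shares L. sa., and the unadjusted p was under 0.05 for 196 (1.63%). For L. sa. + L. av. relative to L. ag. + L. av., the pair that shares L. av., limma also called 0 (0.0%), and the unadjusted p was under 0.05 for 352 (2.92%), 109 higher and 243 lower. Both shares are below 0.05, the share that this threshold passes on average where nothing differs. The 95% interval of a difference had a median half-width of 1.00 on the log2 scale in both comparisons (unadjusted), so about as many features had a half-width above 2-fold as below it. The fit gave differences of at least 2-fold for 471 and 642 features, or 3.91% and 5.33% of those tested.

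The length order was weak between pairs. The median log2 difference between L. sa. + L. av. and L. sa. + L. ag. ran from 0.08 up to 500 bp and 0.18 between 500 and 1000 bp to -0.11 above 4000 bp. For L. sa. + L. av. relative to L. ag. + L. av. it ran from -0.06 up to 500 bp to -0.09 above 4000 bp and had no such order. ENSGALG00000017926 was at 1684 and 1994 FPKM with L. sa. + L. ag. and at 1015 and 1445 FPKM with L. ag. + L. av. Its log2 difference was 0.47 ± 0.53 for L. sa. + L. av. relative to L. sa. + L. ag. and 1.07 ± 0.53 for L. sa. + L. av. relative to L. ag. + L. av. (SE, limma adjusted p = 1.0 for both), so neither difference passed. The comparisons of these pairs with control use the same 3 control libraries, and their agreement with the present one is not evidence of its own.

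Across the 11084 features, the 2 L. sa. + L. av. libraries lay at a median absolute difference of 0.36 in log2(FPKM + 1), and 11.6% of features differed at least 2-fold between them. The controls lay at 0.40, 0.54 and 0.22 from each other. L. sa. + L. av. libraries lay at 0.60 to 0.90 from control libraries, further than any distance within either group. They lay at 0.27 and 0.29 from L. sa. + L. ag. replicate 2, nearer than to each other, and at 0.49 to 0.57 from L. sa. + L. ag. replicate 1 and L. ag. + L. av. replicate 1. They lay at 0.33 and 0.44 from L. ag. + L. av. replicate 2. From the controls, replicate 1 of the 2 other pairs lay at 0.30 to 0.62. L. sa. + L. ag. replicate 2 lay at 0.82, 0.67 and 0.65 from them, and L. ag. + L. av. replicate 2 at 1.01, 0.81 and 0.75. The library of unclear pair lay at 0.85, 0.67 and 0.64. A distance like that of L. sa. + L. av. was thus shared by replicate 2 of both other pairs and by the library of unclear pair. The 2 libraries of L. sa. + L. ag. lay at 0.54 from each other and those of L. ag. + L. av. at 0.59. The distance of L. sa. + L. av. from control thus exceeded the spread within both groups, while its distances from the libraries of the other pairs were 0.27 to 0.57.

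**Figure D5:**
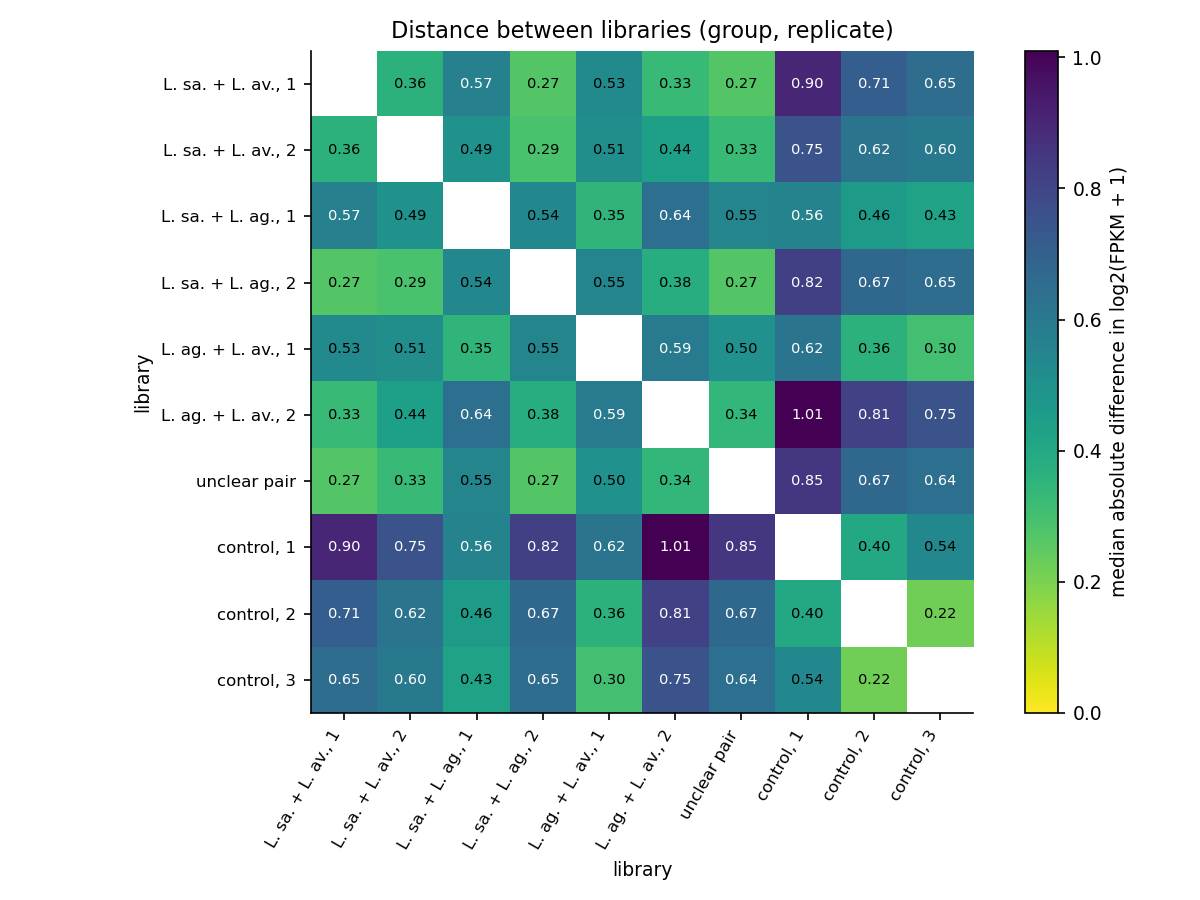
Median absolute difference in log2(FPKM + 1) between each pair of libraries over the 11084 tested features, with groups and replicate numbers on both axes and darker cells further apart. The 2 L. sa. + L. av. libraries are 0.36 apart and 0.60 to 0.90 from the controls, and their nearest libraries are of another pair or of unclear pair.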

How the data were processed

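Crypt RNA was prepared with EDTA, TRIzol and a TruSeq kit, per the labels' protocols. CASAVA 1.8, HISAT2 and featureCounts 1.5.0-p3 are named in the submitters' processing notes, and the genome build and annotation were not given in the sources used here. FPKM values were deposited for 19561 features in 10 libraries. Of the identifiers, 17108 are Ensembl's and 2453 the authors' own, and 0 matched the reference gene table (assembly bGalGal1.mat.broiler.GRCg7b), so the 30 planned gene lists gave no result. Low values are whole multiples of a step per feature, which gave length, whole reads and library total. Of values above 0 with a recovered length (17374 of 17375 features), 100.0% lay within 0.02 reads of a whole number. A length was accepted only where all values of the feature came this near to whole reads, so that share is no check of the lengths. Lengths recovered from few reads may be too short.

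Values were tested on log2(FPKM + 1) with limma 3.58.1 in R 4.3.3 (trend, 5 libraries, no covariate). Pairs were compared in a fit of all groups for features at 1 FPKM or more in at least 2 of 10 libraries. Library measures had exact permutation tests. The fit was tested on simulated data with known changes, with noise drawn for each feature on its own. It called 10% of 2-fold, 82% of 4-fold, 96% of 8-fold and 100% of 16-fold changes, and 0.11% of unchanged features. Shifts shared by many features, such as those by length, were not simulated, so these shares do not carry over to the calls made here. The named features are the 2 highest and 2 lowest by log2 fold change among called features whose groups did not overlap and whose higher group averaged at least 5 FPKM. The members, lists and tests were chosen with earlier results of these data known. Alternatives were another pseudocount, filters, scalings, priors, weights, samples and a replicate block.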

Additional observations from a re-analysis of the deposited data

Results flagged for a closer look

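In the library of unclear pair, which entered no group, ENSGALG00000017926 was at 1645 FPKM, above its highest control value of 108 FPKM, and ENSGALG00000025650 was at 424 FPKM, above its highest control value of 30.3 FPKM. Both values are singled out because they are signals in a library outside the comparison that exceed every control.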

How the results depend on the processing

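The count of 1877 features called against control was 975 with no filter on low values, 707 with quantile normalization, 395 after division by all recovered reads, 4561 with library weights, 3686 when the unclear-pair library joined L. sa. + L. av., 9 in the fit of all groups and 0 with the replicate block. It was 0 to 2231 with 1 library left out. With another pseudocount, a mean of at least 5 FPKM, median-ratio scaling, a robust prior, no trend, voom weights or a minimum log2 fold change of 1 it was 1606 to 1895. The 2 filter settings tested other numbers of features, so their counts are not of the same total. The mean filter called 1784 of 6462 features and the fit with no filter 975 of 16874, against 1877 of 11084. Of the 1877, 1496 passed the mean filter, and all 1496 were called there. The titles give replicate numbers alone, so whether the same number marks a shared batch is not known. In their deviations from the group means, L. sa. + L. av. replicates 1 and 2 correlated at -0.308 and -0.196 with the same-numbered controls. The deviations of 2 libraries from their own mean are opposite by construction, so these values cannot decide it. The block left 0 calls in a fit in which control replicate 3 carries no information on the diet. The share of calls that were higher was 71.5%, and 56.5% with library weights, 59.9% when the unclear-pair library was added and 83.2% with no filter.

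For L. sa. + L. av. relative to L. sa. + L. ag. the count of 0 became 0 to 1 with 1 library left out. For L. sa. + L. av. relative to L. ag. + L. av. it became 1 with a pseudocount of 0.1, 1 with the replicate block and 0 to 10 with 1 library left out, the 10 without L. ag. + L. av. replicate 2. These single calls, named after their values were seen, were ENSGALG00000016152 without L. sa. + L. av. replicate 2, ENSGALG00000025203 with the pseudocount of 0.1 and the authors' feature 331 with the block.

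By length, the medians of 0.68, 0.63, 0.20, -0.23 and -0.45 became 0.46, 0.37, -0.07, -0.48 and -0.68 after division by all recovered reads, where the median of all features was -0.26. A pseudocount of 0.1 gave 0.90 up to 500 bp and -0.59 above 4000 bp, and quantile normalization 0.38 and 0.08 between 500 and 1000 bp and between 1000 and 2000 bp. By control mean, the medians of -0.10, -0.09, 0.26 and 0.81 became -0.29, -0.38, -0.05 and 0.49 after division by all recovered reads. Quantile normalization, which equalizes the distributions of the libraries, gave 0.05 under 5 FPKM and -0.25, -0.22 and -0.26 in the 3 upper classes. A pseudocount of 0.1 gave -0.16 under 5 FPKM. With 1 library left out the medians ran, in order of length, over 0.58 to 0.88, 0.51 to 0.74, 0.19 to 0.23, -0.25 to -0.18 and -0.49 to -0.36, and in order of control mean over -0.19 to -0.06, -0.12 to -0.06, 0.20 to 0.37, 0.68 to 0.90 and 0.45 to 0.97.

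The 4 named features kept their direction under all alternatives in which they were tested, a description only, since they were chosen on the same values. ENSGALG00000025203 was not tested with the filter of a mean of at least 5 FPKM. With both L. sa. + L. av. libraries in the fit, the limma adjusted p was 0.00081 to 0.11. Few reads with L. sa. + L. av. limit how well the fold changes of the 2 lower named features are known. For the authors' feature 1112, 3 reads would have given 0.278 and 0.301 FPKM there, well under its lowest control of 4.93 FPKM. The 2 libraries with the pair limit every comparison.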

Other observations

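ENSGALG00000016152, chosen after its values were seen, had 1144 FPKM in the first and 19.1 FPKM in the second L. sa. + L. av. library, against 26.0, 25.5 and 18.8 FPKM in control. It was at 87.4 FPKM in the library of unclear pair, 15.4 and 20.6 FPKM with L. sa. + L. ag. and 49.3 and 43.9 FPKM with L. ag. + L. av., so its high value with L. sa. + L. av. rests on 1 library.

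The authors' feature 331, also chosen after its values were seen, took either a high or a low level in each library. It was at 0.152 and 0.247 FPKM with L. sa. + L. av., at 0.686 and 0.279 FPKM in the L. sa. + L. ag. libraries, at 19.5 and 23.6 FPKM with L. ag. + L. av. and at 0.388 FPKM in the library of unclear pair. In control it was at 18.9 and 17.5 FPKM in replicates 1 and 2 and at 0.311 FPKM in replicate 3, so the 2 levels also occurred within 1 diet.

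The library of unclear pair lay at a median absolute difference in log2(FPKM + 1) of 0.27 and 0.33 from L. sa. + L. av. replicates 1 and 2, of 0.50 and 0.34 from L. ag. + L. av. replicates 1 and 2 and of 0.55 and 0.27 from L. sa. + L. ag. replicates 1 and 2.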
